A study of Xenopus laevis with 4 samples.

Results

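Cytosolic ribosomal proteins are the protein components of the ribosome that works outside mitochondria, and their mRNAs were read here in regenerating and regeneration-blocked hindlimb buds of Xenopus laevis tadpoles. They were taken as the probesets of the Affymetrix array whose single gene symbol names a protein of the large subunit (rpl, rplp) or of the small subunit (rps, rpsa), leaving out the S6 kinases. This gave 94 of the 15491 probesets tested. They read 74 gene copies of 65 genes, with 52 probesets for the large subunit, 39 for the small subunit and 3 for paralogues of large subunit proteins. X. laevis arose by genome duplication through hybridisation, and a symbol ending in L or S names the copy on the longer or the shorter chromosome of a homeologous pair. Signals are given below in the order replicate 1 and replicate 2.

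The study asked which genes differ between a limb bud stump that regenerates and one that does not. Wild type (WT) tadpoles formed a blastema, the mound of proliferating cells from which a limb regrows, whereas tadpoles of the transgenic line N1 formed a rounded pseudoblastema that did not grow out. N1 is a line with 1 insertion of the Noggin coding sequence under the heat-inducible Hsp70 promoter, joined to GFP under a lens-specific crystallin promoter. Noggin is a secreted inhibitor of BMP ligands, so that heat shock blocks BMP signalling in this line. WT and N1 tadpoles were siblings from 1 backcross, and both received the same heat shocks before and after amputation, which the WT values therefore carry too. Each of the 4 arrays held RNA from a separate pool of 20 distal stumps, collected 3 days after amputation at NF stage 52, with 2 pools for WT and 2 for N1. In such bulk tissue, fewer cells of a type and less RNA per cell cannot be told apart.

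The ribosome translates mRNA into protein. Its small subunit reads the codons and its large subunit joins the amino acids, which leave through a tunnel in the large subunit. Proteins of both subunits are made in matched amounts, imported into the nucleolus and assembled on rRNA. In vertebrates their mRNAs begin with a terminal oligopyrimidine (TOP) tract, through which the mTOR pathway sets how much of them is translated, so that mRNA level and protein output need not move together. Growing tissues, among them blastemas, need many new ribosomes.

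Ribosomal protein mRNAs gave some of the brightest signals on the arrays, and as deposited their signals lay slightly above WT in N1, which was not so when the arrays were centred on spiked controls. The values are MAS5 signals on a linear scale, which the authors had scaled so that each array had the same trimmed mean, and a difference is given below as log2 of WT minus log2 of N1, so that a negative value means a brighter signal in N1. The median difference over the 94 probesets was -0.20, which is 1.15-fold brighter in N1, with an interquartile range from -0.32 to -0.13. It was negative for 85 probesets and positive for 9. Over all 15491 probesets the median was -0.07, and 55.9% were negative. No single ribosomal protein passed the test: 0 of the 94 had an adjusted p under 0.05 in either direction (limma, Benjamini-Hochberg over all probesets), where the background was 0.110% called toward N1 and 0.0129% toward WT, and the lowest adjusted p was 0.382. At an unadjusted p under 0.05 in the same limma fit, 5 probesets (5.32%) were higher in N1 against a background of 6.82%, and 1 (1.06%) was higher in WT against 4.29%. Those shares were not above the background.

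The pattern was one of many small differences in 1 direction. Both N1 arrays lay above both WT arrays for 61 probesets, or 64.9%, whereas the background was 24.2%. The reverse order was found for 5 probesets, or 5.32%, against a background of 17.9%. Large differences were few. By the ratio of mean signals, 2 probesets (2.13%) were over 1.5-fold higher in N1 against 19.0% of all probesets, another 2 (2.13%) were over 1.5-fold higher in WT against 9.10%, and 0 differed by over 2-fold. These counts describe the family, whose members share the same 4 arrays and are not replicates of a condition.

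The family fell into a bright and a dim class with a gap between them. A signal of at least 1000 on at least 1 array was reached by 82 probesets, and the remaining 12 did not exceed 625. The dimmest value of a bright probeset was 1479, on 1 probeset of rpl23a.S, and the next was 4022. The brightness of a probeset depends on its probes as well as on its mRNA, so that signals of different probesets are not compared as expression levels. Of the 82 bright probesets, 79 were negative, and 73 lay within 0.2 of their median of -0.20. The median standard error of a difference was 0.18, and the 95% interval included 0 for 78 of the 82.

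The N1 replicates did not contribute equally. Relative to the WT mean, the bright ribosomal protein probesets had a median log2 signal 0.30 higher on the array of N1 replicate 1 and 0.11 higher on that of N1 replicate 2. N1 replicate 1 gave the highest of the 4 signals for 66 of the 82, or 80.5%, against 37.6% of all probesets. N1 replicate 2 lay above both WT arrays for 59 of the 82 and within or below them for 23. Without N1 replicate 1 the median was -0.11, with 69 of 82 negative, and without N1 replicate 2 it was -0.30. The array medians of the 94 signals were 15767 and 16313 for WT replicates 1 and 2 and 19856 and 16732 for N1 replicates 1 and 2, so the array of N1 replicate 2 lay closer to WT than to its fellow replicate.

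Leaving out N1 replicate 2 changed the calls. The remaining N1 array, which was then assumed to vary as the WT arrays did, gave an adjusted p under 0.05 in limma for 19 ribosomal protein probesets (20.2%) in the direction of N1, where the background was 1.01%, and for 0 in the direction of WT, where it was 1.15%. Among other bright probesets, 39 of 432 (9.03%) were then called toward N1. Leaving out any of the other 3 arrays gave 0 calls.

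**Figure D1:**
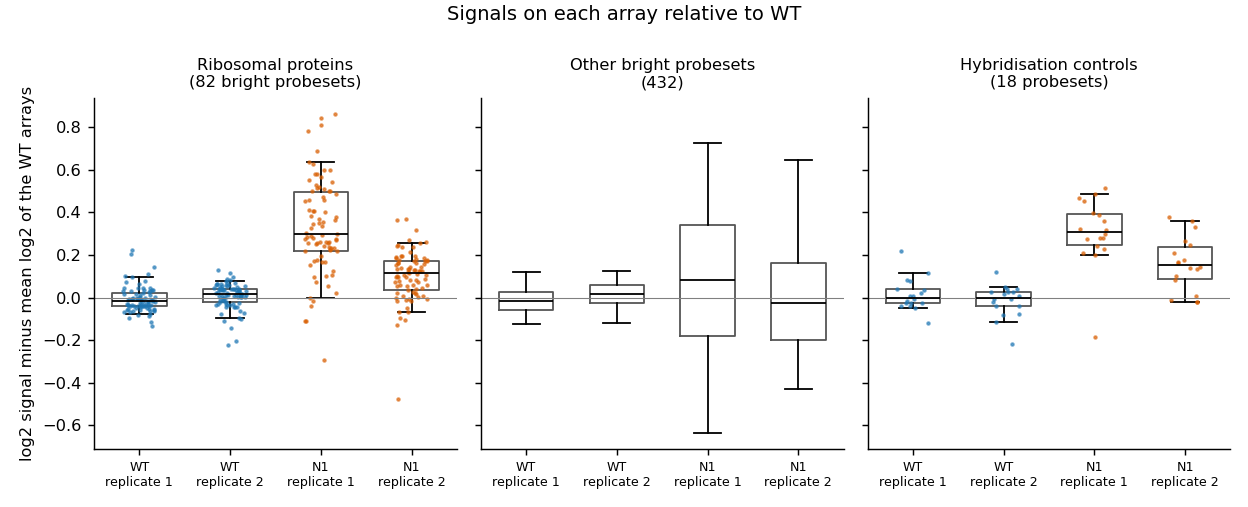
Log2 signals on each of the 4 arrays relative to the mean of the WT arrays (vertical axis), for 82 bright ribosomal protein probesets, 432 other bright probesets and 18 spiked hybridisation controls. Boxes show the median and quartiles, whiskers the 5th and 95th percentiles, and points single probesets; as deposited, the ribosomal proteins and the controls sit above WT on both N1 arrays and highest on that of N1 replicate 1.

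The spiked controls moved with the family. The 18 hybridisation controls, bacterial and phage sequences added in fixed amounts to every sample before hybridisation, had a median difference of -0.23 with a range from -0.38 to -0.09, and 18 of 18 were negative. Relative to the WT mean they were 0.31 higher on the array of N1 replicate 1 and 0.15 higher on that of N1 replicate 2, close to the 0.30 and 0.11 of the ribosomal proteins. The 18 control probesets are repeat readings of the bioB, bioC, bioD and cre sequences, and so not separate observations. One of them, a probeset of cre, had signals of 25165 and 26562 in WT against 35343 and 29834 in N1. The 432 other probesets with a mean log2 signal of at least 12, a level that 81 of the 94 ribosomal protein probesets reached, had a median of -0.01. Their groups did not overlap in 118 cases (27.3%) toward N1 and in 101 (23.4%) toward WT.

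The comparison with other genes depended on the level of signal. Between a log2 level of 12 and 13, the median was -0.24 for 8 ribosomal protein probesets and 0.04 for 278 others. From 13 to 14 it was -0.17 for 24 and -0.04 for 97. From 14 to 15, where 43 ribosomal protein probesets lay, it was -0.21 against -0.18 for 55 others, and both N1 arrays were above both WT arrays for 74.4% and 60.0%. At that level other probesets had a median close to that of the family. Most of the family was also too bright to enter the scaling, since 74 to 78 of the 94 were among the brightest 2% of signals that are trimmed on each array. The ratio of the 3′ to the 5′ probeset of beta-actin was 5.04 and 11.4 in WT and 10.6 and 6.73 in N1. It had no order by group. This ratio was read after 2 rounds of amplification, so it is not a measure of RNA quality alone. The same ratio for Gapd was larger, at 41.1 and 27.6 in WT and 38.6 and 35.0 in N1, also without an order by group. The part of the hybridisation and of the scaling in the family's difference was not tested.

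**Figure D2:**
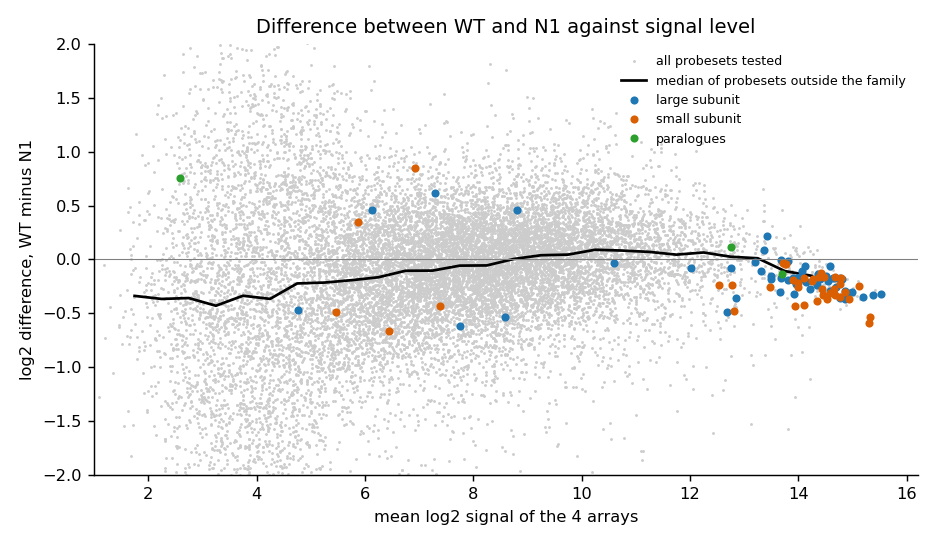
Log2 difference, WT minus N1 (vertical axis), against the mean log2 signal of the 4 arrays (horizontal axis) for all probesets tested in grey, with points beyond 2 on the log2 scale not drawn, and for the ribosomal proteins in colour. The black line is the median of probesets outside the family, in steps with at least 20 probesets; it bends below 0 at the bright end, where most of the family lies.

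The size of the family's difference depended on the scale chosen for the arrays. With quantile normalisation the median was -0.0042, and 48 of the 94 probesets were negative. Centring each array on its median signal gave -0.09 with 73 negative, and centring on the 18 hybridisation controls gave 0.029 with 42 negative. Centring on the other bright probesets gave -0.18 with 83 negative. In each of these scalings the bright ribosomal protein probesets had a lower median than the other bright probesets. That distance was 0.07 after quantile normalisation and 0.20 as deposited. Median centring moved the median of all probesets by 0.11 and centring on the hybridisation controls moved it by 0.23, and as these shifts apply to every probeset alike, a negative difference smaller than the shift turns positive on that scale. The values that follow are as deposited.

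**Figure D3:**
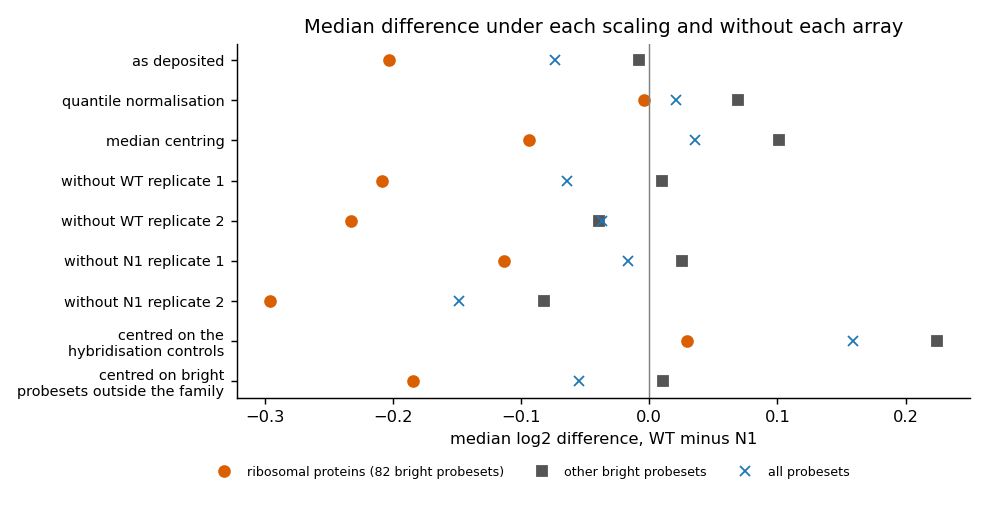
Median log2 difference, WT minus N1 (horizontal axis), for 82 bright ribosomal protein probesets, 432 other bright probesets and all 15491 probesets under each scaling of the arrays and without each array in turn. The ribosomal protein median lies at or below -0.09 in 7 of the 9 settings, near 0 after quantile normalisation and above 0 when arrays are centred on the hybridisation controls.

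The proteins of the stalk, a flexible arm of the large subunit that recruits the elongation factors, were read by 6 probesets together with the proteins at its base. Their median was -0.26, and 6 of 6 were negative. The anchor of the stalk, rplp0.S, had signals of 33004 and 33573 in WT against 49676 and 36238 in N1. Its N1 arrays lay above both WT arrays, with a difference of -0.35 ± 0.21 (SE) and an adjusted p of 0.579 in limma. The acidic protein rplp1.L, which binds the anchor, gave 6357 and 4798 in WT and 8517 and 7095 in N1. It had the most negative difference of this group, -0.49 ± 0.20, with a limma p of 0.0384 before adjustment and 0.419 after, and its WT arrays differed from each other more than those of rplp0.S. Its partner rplp2 differed less, with -0.11 ± 0.17 for the L copy and -0.02 ± 0.18 for the S copy, and the groups overlapped for both. At the base of the stalk, rpl12.S gave 14342 and 14480.0 in WT and 16199 and 16372 in N1. Here the N1 arrays were alike and both above WT. The last protein of the group, rpl10.S, which is among the final ones to join the large subunit in the cytoplasm, had 24006 and 25311 in WT and 37289.8 and 26866 in N1, a difference of -0.36 ± 0.21. Its N1 replicate 2 lay close to WT and its N1 replicate 1 well above.

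Proteins rpl5 and rpl11 form a particle with 5S rRNA. When ribosome assembly is disturbed, the free particle binds Mdm2 and so stabilises p53. The median of their 3 probesets was -0.16. The signals of rpl11.S were 20115 and 20548 in WT and 24610.2 and 21747 in N1, without overlap. Those of rpl5.S were 15620.5 and 15946 in WT and 18784 and 16614 in N1, also without overlap, while the N1 arrays of rpl5.L, at 27876 and 22438, lay on both sides of its WT arrays. Of the genes of the p53 response listed beside them, 2 of 6 were read. The Mdm2 relative mdm4.S had a difference of -0.08, and the p53 target ccng1.L had one of 0.42 with N1 signals of 3818 and 10487 on either side of WT.

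Around the tunnel through which the new polypeptide leaves, 11 probesets of rpl4, rpl17, rpl19, rpl22, rpl23a, rpl31, rpl35 and rpl39 had a median of -0.17. Of these, 9 were negative, and both N1 arrays lay above both WT arrays in 3, or 27.3%, which is near the background of 24.2%. The protein rpl39.L, which lines the lower tunnel, was among the 3, with 14651 and 14822 in WT and 18131 and 16387 in N1. Its difference was -0.23 ± 0.17. For rpl4, whose long loop reaches into the tunnel wall, the 2 gene copies lay on opposite sides of 0. The L copy had 10402 and 11584 in WT and 13091 and 11386 in N1, and the S copy had 11675 and 11854 in WT and 9588 and 10746 in N1. The S copy was thus one of 2 bright probesets with both WT arrays above both N1 arrays. Its difference was 0.21 ± 0.17 and that of the L copy -0.15 ± 0.18, and both intervals included 0. Probesets for rpl17.S, rpl19.L, rpl22.S, rpl23a.S and rpl31.S had differences between -0.20 and -0.03.

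On the small subunit, the proteins that line the mRNA channel and the decoding site had the most negative median of the groups. It was -0.35 over 8 probesets, 8 of them negative. The group was set by exact symbol. It lists rps28, but the 4 probesets named rps28p9.S were not counted in it. These ranged from -0.24 to 0.85, and the bright ones from -0.24 to -0.04, nearer 0 than the group median. Both N1 arrays were above both WT arrays in 7 of the 8 (87.5%), against a background of 24.2%. For probesets outside the family that share was 60.0% at a log2 level of 14 to 15, where most of the 8 lay. It was 28.9% at 13 to 14, where rps23.L lay, and 19.8% at 12 to 13, where rps15.S lay. The signals of rps15.S, whose tail reaches the decoding site, were 6387 and 5737 in WT and 10411 and 6841 in N1. The difference was -0.48 ± 0.22, and its limma p was 0.0621 before adjustment. At the mRNA entry, rps2.L had 26082 and 29305 in WT and 40863 and 31139 in N1, a difference of -0.37 ± 0.20. The neighbouring rps3, also part of the entry, was read in both copies. Its L copy gave 23769.8 and 22645 in WT and then 33982 and 25151 in N1, and its S copy 20553 and 21292 in WT and then 37496 and 19468 in N1. The S copy was the exception to the order of the groups, since its N1 replicates lay above and below WT and its standard error of 0.29 was the largest of the 8.

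For rps9, also at the mRNA entry, the probeset ending in x_at had 15460.2 and 14794 in WT and 22862 and 18108 in N1. Its difference was -0.43 ± 0.19, with a limma p of 0.0499 before adjustment and 0.449 after. The ending x_at marks probes that can also match other transcripts. This probeset is annotated as rps9.S. The probeset without that mark, annotated as rps9 with no copy suffix, had a smaller difference of -0.17 ± 0.18. The part of the mark and of the gene copy in that gap was not tested. The remaining members were rps23.L, which sits at the decoding site, with -0.26 ± 0.18, and rps26.L, which sits where mRNA leaves, with -0.28 ± 0.18. For rps15, rps9 and rps3, probesets that carry several symbols, and so are not members, had -0.24 ± 0.19, -0.24 ± 0.17 and -0.26 ± 0.24. These lay nearer 0 than the group median of -0.35.

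The protein rps6 is phosphorylated by the S6 kinases downstream of mTOR. Its L copy had 25677 and 26072 in WT and 34119 and 26931 in N1, and its S copy 14518 and 14142 in WT and 17120.4 and 15544 in N1. In both copies the N1 arrays lay above WT, with differences of -0.23 ± 0.19 and -0.19 ± 0.17. For rpsa.S, a small subunit protein that also occurs as a laminin receptor, the signals of 18549.7 and 17812 in WT and 24064 and 18196 in N1 overlapped because N1 replicate 2 lay between the WT arrays.

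**Figure D4:**
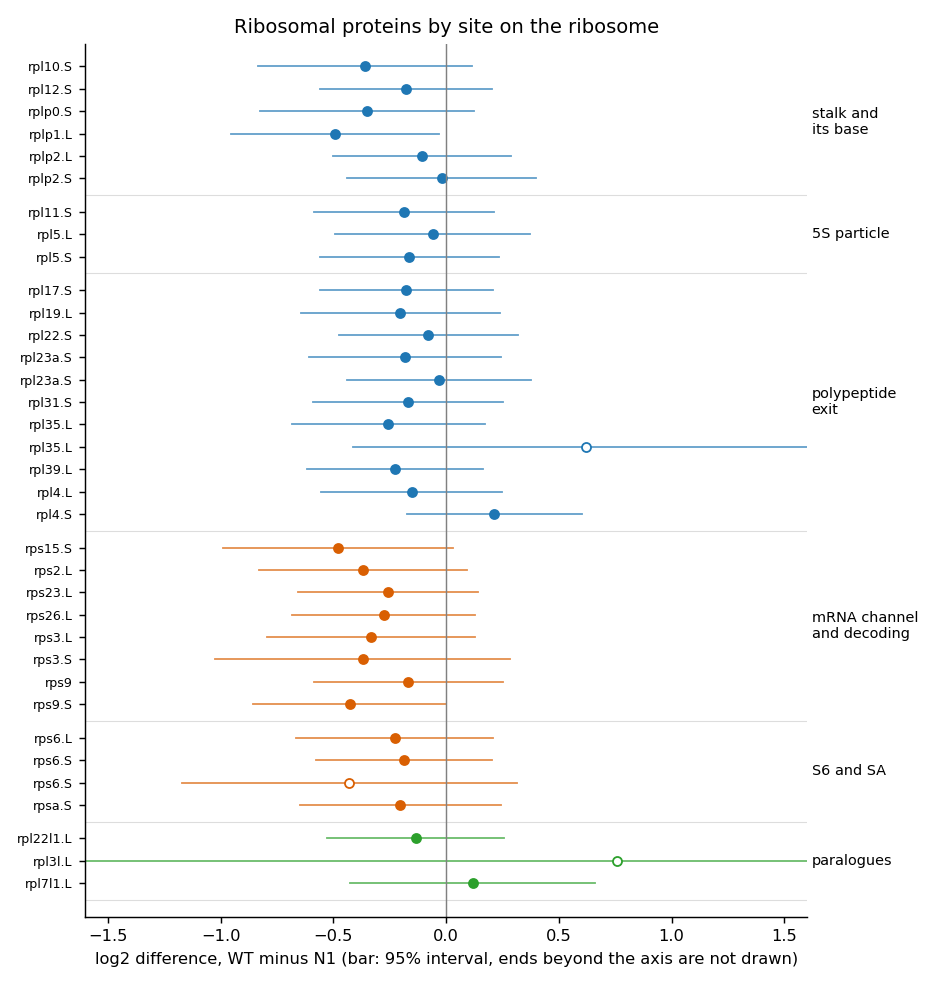
Log2 difference, WT minus N1, with its 95% interval from limma (horizontal axis, ends beyond 1.6 not drawn) for the probesets of ribosomal proteins grouped by their site on the ribosome, and for the paralogues. Open points are probesets under a signal of 1000. Every bright interval includes 0 except that of rplp1.L and, by a margin too small to see, that of rps9.S. The proteins of the mRNA channel, counted without rps28p9.S, have the most negative median, -0.35.

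The most negative differences among the bright probesets belonged to 2 other small subunit proteins. For rps13.L, which lies where the subunits meet, the signals were 31734 and 34399 in WT and 60016 and 41147 in N1. The N1 arrays were both above WT but differed from each other by more than N1 replicate 2 differed from WT. Its difference was -0.59 ± 0.22, with a limma p of 0.0277 before adjustment and 0.382 after. For rps25.S, a protein of the small subunit head used by some viral mRNAs to start translation, the signals were 31824 and 35869 in WT and 59143 and 40695 in N1. The pattern over the arrays was the same as for rps13.L, with a difference of -0.54 ± 0.22, a limma p of 0.0409 and an adjusted p of 0.424. Both were among the 5 brightest probesets of the family, with rpl35a.S, rpl38.L and rplp0.S. The signals of rpl35a.S were 40574 and 44167 in WT and 59789.7 and 46587 in N1. Mutations of this gene in people cause Diamond-Blackfan anaemia, a failure of red cell production. Its difference of -0.32 ± 0.20 and that of rpl38.L, -0.33 ± 0.20, were close to that of rplp0.S. In rpl38.L, needed in mice for normal patterning of the axial skeleton, the WT arrays gave 36669 and 39489 and the N1 arrays 54584 and 41763.

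The zinc finger protein rps27.S was read by 4 probesets with differences from -0.43 to -0.17. In 4 of 4 both N1 arrays were above both WT arrays, against a background of 24.2%. At a log2 level of 14 to 15 the share was 60.0% for probesets outside the family. At 13 to 14, where the probeset ending in a_at lay, it was 28.9%. The 4 probesets read the same gene copy on the same arrays and are not separate observations. The one ending in a_at had 13848 and 13048 in WT and 21676 and 15206 in N1, and again N1 replicate 2 was the nearer to WT. Without N1 replicate 2, the differences were -0.86 for rps13.L, -0.84 for rps3.S and -0.81 for rps25.S. Without N1 replicate 1 they were -0.32, 0.10 and -0.27. Most of the other bright probesets were negative as well. Outside the sites and paralogues described, 27 bright large subunit probesets ranged from -0.37 to 0.09 with 26 negative, and 23 bright small subunit probesets ranged from -0.59 to -0.03 with 23 negative. Over the bright probesets of each subunit, the median was -0.18 for 46 of the large and -0.25 for 34 of the small, and that distance was not tested. The median was -0.21 for 34 L copies and -0.20 for 47 S copies.

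Bright probesets with a positive difference were 3. Apart from rpl4.S they were rpl9.L of the large subunit and rpl7l1.L. For rpl9.L the WT arrays gave 11036 and 10856 and the N1 arrays 10134 and 10448, and the WT arrays were both above N1 with a difference of 0.09 ± 0.17. The paralogue rpl7l1.L had 7128 and 7342 in WT and 8532 and 5209.8 in N1. Its N1 replicates lay above and below WT, and the difference was 0.12 ± 0.24. Of the other paralogues, rpl22l1.L, the relative of rpl22, gave 13031 and 12468 in WT and 13249 and 14796 in N1, a difference of -0.14 ± 0.17. The third, rpl3l.L, which in mammals replaces rpl3 in muscle ribosomes, stayed at or under 8.8 on the 4 arrays, the dimmest probeset of the family.

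The probesets of 1 gene did not always give the same sign. Of the 20 genes read by several probesets, 6 had differences on opposite sides of 0, namely rpl4, rpl28, rpl35, rpl38, rps10 and rps28p9. In 5 of the 6 at least 1 of the probesets was dim, and among bright probesets alone the sign differed for rpl4. For rpl38.L the dim probeset had 445 and 625 in WT and 336 and 441 in N1, a difference of 0.46 ± 0.27 that ran against the bright one. In rpl35.L, at the tunnel exit, the bright probeset had -0.26 ± 0.19 and the dim one 0.62 ± 0.45, the latter with signals of 215 and 178 in WT and 80.4 and 201 in N1. The dim values overlapped between the groups. The gene that the array annotation names rps28p9.S was read by 4 probesets, with differences from -0.24 to 0.85, the widest spread of the 20 genes. Its dim probeset had 170.2 and 156 in WT and 107 and 76.5 in N1, and was the probeset of the family with an unadjusted p under 0.05 toward WT (0.047, adjusted 0.443, limma).

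Where both homeologous copies had bright probesets of their own, their mean differences were close for rps3, rps3a, rps6, rplp2 and rpl5, at most 0.10 apart, and farther apart for rps12 and rpl4. For rps12 the L copy had 21374 and 22430.5 in WT and 30038 and 24630.1 in N1, without overlap. Its S copy had 12378 and 14847 in WT and 14522 and 13406 in N1, with both N1 arrays between the WT arrays. The difference between copies was not tested.

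**Figure D5:**
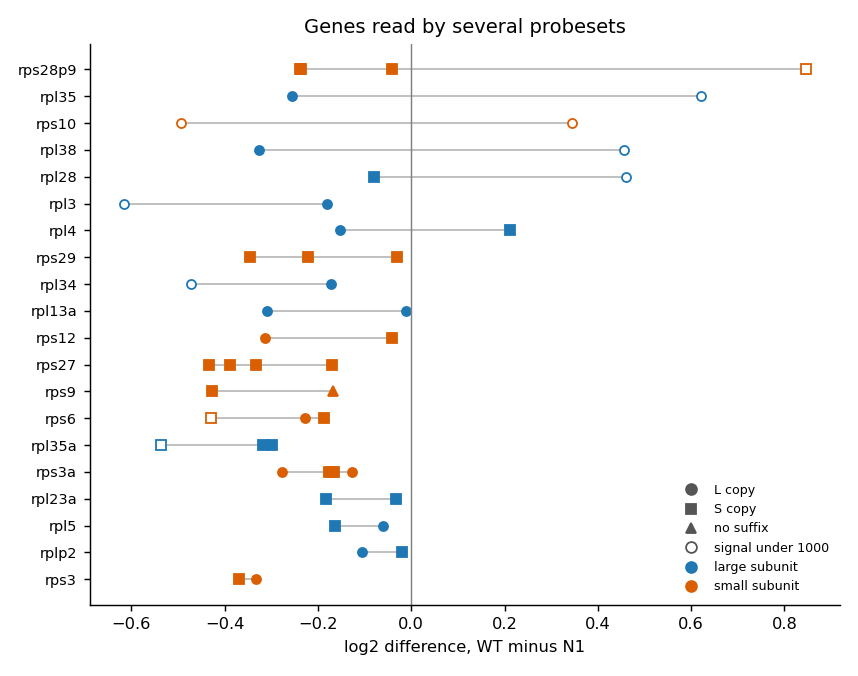
Log2 difference, WT minus N1 (horizontal axis), of each probeset of the 20 genes read by several probesets, ordered by their spread. Circles are L copies, squares S copies, the triangle a symbol without suffix, and open symbols probesets under a signal of 1000; most differences to the right of 0 belong to open symbols.

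The 12 dim probesets ranged from -0.67 to 0.85 with 6 on each side of 0 and a median of -0.04. Their median standard error of 0.46 was larger than the 0.18 of the bright ones. The identifiers of 10 of the 12 end in A1_at, an ending that 3 of the 82 bright ones carry. Of these, rpl35a.S had 308 and 333 in WT and 480.4 and 449 in N1, with a limma p of 0.0486 and an adjusted p of 0.447. The direction was that of its bright probesets. For rpl3.L, which lies close to the catalytic centre, the dim probeset had 124 and 244 in WT and then 266 and 268 in N1, a difference of -0.62 ± 0.36, where its bright probeset had -0.18 ± 0.17. The probesets of rps10.L, rps20.L and rpl28.L and the dim ones of rpl34.L and rps6.S were between 20.3 and 211 on the 4 arrays.

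Another 16 probesets match ribosomal proteins but carry several symbols, mostly both copies of 1 gene, and so are not members. They were kept out of the counts above and give a second reading of some of the same genes. Their median was -0.24, with a range from -0.52 to -0.03 and 16 of 16 negative, and N1 replicate 1 was the highest array in 16 of 16. Both N1 arrays were above both WT arrays in 8 of them (50%), against a background of 24.2%. Probesets outside the family at a log2 level of 14 to 15, where most of the 16 lay, had a share of 60.0%, so the 50% was not above that share. The probeset that reads rps10 in both copies was bright, with 20439 and 19347 in WT and 22115 and 19664 in N1, whereas both rps10.L probesets were dim. That for rplp1, with 14326 and 14378 in WT and 22717 and 18532 in N1, had the most negative difference of the 16, -0.52 ± 0.18, and an adjusted p of 0.35 in limma.

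Other genes of the pathway were listed for comparison. The ribosomal protein fau.L, made as a fusion with a ubiquitin-like protein and so named otherwise, lay with the members, with 19776 and 19905 in WT and 27645 and 21924 in N1. Other mRNAs with a TOP tract lay on both sides of 0. Of 16 such genes listed, 12 were read by 34 probesets, of which 12 were negative and 22 positive, with a median of 0.03. Several probesets read the same gene and are not separate observations. Most of the 34 lay below a log2 level of 14, whereas 43 members lay from 14 to 15. Probesets outside the family had medians of 0.04 at 12 to 13, -0.04 at 13 to 14 and -0.18 at 14 to 15. The part of signal level in the gap between this list and the members was not tested. None of the 34 passed an adjusted p of 0.05 (limma), and at an unadjusted p under 0.05 the counts were 0 toward N1 and 1 toward WT, against a background of 6.82% and 4.29%. Within that list the brighter probeset of the elongation factor eef1a1.S had 28728 and 30468 in WT and 40264 and 34496 in N1. It lay with the ribosomal proteins at -0.33, as did the brightest probesets of eef1g.L at -0.35 and -0.31. The brighter probeset of nap1l1.L did not, with 18080 and 20696 in WT and 18296 and 17484 in N1, a difference of 0.11. The dimmer probeset of eef1a1.S lay at 0.16 and the probeset of eef1g.S at -0.0019. The nucleolar chaperone npm1.S was positive too, with 4071 and 4151 in WT and 1212 and 3164 in N1. It had a difference of 1.07 ± 0.38 and an adjusted p of 0.349 in limma. Its other copy npm1.L had differences of 0.02 and 0.06.

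Among the regulators of TOP mRNA translation, 7 of 12 genes were read by 11 probesets, with a median of 0.06 and 5 negative. The TOP-binding repressor larp1.L had 567 and 625 in WT and 533 and 418 in N1. One probeset, a dim one of the S6 kinase gene rps6kb1.L with a difference of 1.38, had an unadjusted p under 0.05 in limma, where the background toward WT was 4.29%, and 0 passed after adjustment. The probesets of its other copy rps6kb1.S lay on both sides of 0, at -1.76, -0.38, 0.16 and 0.39.

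The factors that escort ribosomal proteins to the nucleus and into the ribosome lay mostly on the WT side. Of 20 genes listed, 12 were read by 19 probesets, 15 of them positive and 4 negative, with a median of 0.34. At an unadjusted p under 0.05 in limma, 5 were higher in WT and 1, a probeset of znf622.L under 50, was higher in N1, against a background of 4.29% toward WT and 6.82% toward N1, and 0 passed after adjustment. The largest of the 5 was rpf2.S, which brings the 5S particle to the large subunit, with 1488 and 2085 in WT and 635 and 1033 in N1. Its difference was 1.12 ± 0.28 with an adjusted p of 0.195 in limma. The importers ipo5.L and kpnb1.S followed. For ipo5.L the signals were 1646 and 1662 in WT and 780 and 1160 in N1, a difference of 0.80 ± 0.23. For kpnb1.S they were 1545 and 1786 in WT and 947 and 1095 in N1, a difference of 0.71 ± 0.19. Both WT arrays were above both N1 arrays in these 3, the reverse of most ribosomal proteins. Over the 19 probesets this order was found in 8, against a background of 17.9%. Other readings were less uniform. The copy ipo5.S had 0.41 with overlapping groups, and the importer ipo7.L had -0.14. Another of the 5 was a probeset of bccip.L at 0.59, whose other probesets had 0.20 and -0.29. Whether the factors differ from the ribosomal proteins they serve was not tested.

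Markers of other cells differed between the pools. Summed over the 8 red cell probesets, the signal was 38693 and 31259 in WT and 76074 and 97573 in N1, with 7 of 8 negative. For 10 epidermal probesets it was 5103 and 4480 in WT and 8896 and 9228 in N1, with 8 of 10 negative. Most of that sum came from epcam.L and epcam.S. The copies of krt19 went opposite ways, with a difference of 1.34 for krt19.S and -1.55 for krt19.L. The keratin krt18.1.L had 48.4 and 49.1 in WT and 414 and 457 in N1. Its difference was -3.16 ± 0.32 with an adjusted p of 0.0258 in limma, while the dim copy krt18.1.S had 0.40. Summed over the 6 cartilage probesets, the signal was higher in WT, at 2444 and 1866 against 1153 and 1400 in N1, with 1 of 6 negative. Pigment cell genes, summed over 4 probesets, were 1326 and 1407 in WT and 4421 and 1879 in N1, and the control probeset for muscle actin was 276 and 287 in WT and 2052 and 392 in N1, so both were highest on the array of N1 replicate 1. The 15 skeletal muscle probesets summed to 2978 and 2711 in WT and 3670 and 3402 in N1, with 12 of 15 negative. Among them the myosin light chain mylpf.L had 8.04 and 7.85 in WT and 179.8 and 32.7 in N1, and the troponin tnnc2.L had 5.92 and 2.99 in WT and 141 and 36 in N1. The summed muscle signal was above WT on both N1 arrays, but most of it came from 1 probeset of atp2a1.S and 1 of ckm.L. That of atp2a1.S had 1252 and 1080 in WT and 975 and 1356 in N1. That of ckm.L had 1342 and 1308 in WT and 1384 and 1671 in N1. Both were highest on the array of N1 replicate 2, whereas mylpf.L and tnnc2.L were highest on that of N1 replicate 1. Leucocyte probesets summed to between 1789 and 2168 and endothelial probesets to between 159 and 324. The 13 probesets of limb bud genes summed to between 1185 and 1467 on the 4 arrays, mostly from msx1.L, msx2.L and hoxd13.S. Of these, msx1.L had 570.3 and 459 in WT and 382 and 397 in N1, and hoxd13.S had 106 and 141 in WT and 269.6 and 209 in N1. The limb bud genes tbx4, tbx5, fgf10 and hoxa13 stayed under 100 on the 4 arrays. The part of these cells in the difference of the ribosomal proteins was not tested.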

How the data were processed

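RNA was labelled by 2 rounds of amplification and hybridised to Affymetrix X. laevis arrays. The authors deposited MAS5 signal intensities from GCOS (versions not given in the sources used here), scaled to a trimmed mean of 500. Detection calls were not used here. Symbols came from the platform annotation, and those of the 94 members were all in the RefSeq gene table of Xenopus_laevis_v10.1. After 120 control probesets were left out, log2 signals of all 15491 probesets were fitted with limma 3.58.1 in R 4.3.3 (lmFit and eBayes with a variance trend, Benjamini-Hochberg adjustment, threshold 0.05), and the fit was tested on simulated data. With 2 arrays a group the precision is limited, and 0.333 is the smallest two-sided p of an exact permutation test.

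Members and lists were chosen with earlier results of these data known. Named members were those of 6 functional groups, the 10 with the largest difference in each direction at or above the median level, the 5 brightest and 5 dimmest, those with an unadjusted p under 0.05, and genes whose probesets lay on opposite sides of 0 or over 1 apart. Alternatives were no variance trend, quantile normalisation, median centring, 16 or 64 added before log2, level filters at the median and 25th percentile, a block for the replicate number, omission of each array, the brightest probeset of each copy, unmarked probesets alone and geometric means. Centring on the hybridisation controls or on other bright probesets was added after seeing the data.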

Additional observations from a re-analysis of the deposited data

How the results depend on the processing

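The member median of -0.20 was -0.0042 after quantile normalisation. It turned to 0.029 when arrays were centred on the hybridisation controls, an alternative chosen after seeing the data. Under the other alternatives tried it moved by less than the SD between arrays of the member median log2 signal, 0.13. That SD is taken over the arrays of both groups, so it includes their difference and is not a measure of noise. Among these alternatives the median was -0.09 after median centring, -0.11 without N1 replicate 1 and -0.30 without N1 replicate 2. Adjusted calls (limma) stayed at 0 except when an array was left out, where they ranged from 0 to 19, the 19 arising without N1 replicate 2. Members higher in N1 at an unadjusted p under 0.05 (limma) numbered 5, and 0 without the variance trend, 2 after quantile normalisation and 1 after median centring. They numbered 8 with the filter at the 25th percentile and 0 with centring on the hybridisation controls. Those higher in WT numbered 1, and 2 without the variance trend, 0 with the filter at the median level, 0 with the brightest probeset of each copy and 3 with centring on the hybridisation controls. Members over 1.5-fold higher in N1 numbered 2, and 0 after quantile normalisation, 0 after median centring, 1 with 16 or 64 added, 1 with the median filter, 0 with centring on the hybridisation controls and 0 to 10 with an array left out. Those over 1.5-fold higher in WT numbered 2, and 1 with 16 added, 0 with 64 added, 0 with the median filter, 1 with the filter at the 25th percentile, 1 with the brightest probeset of each copy, 5 with centring on the hybridisation controls and 2 to 4 with an array left out. The 10 members over 1.5-fold higher in N1 were found without N1 replicate 2. Shares over all probesets were not taken for these alternative counts at an unadjusted p or by the fold rule. The counts therefore cannot be set against a background. Apart from fewer samples or probesets tested, the cause of the changes was not tested.

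With the replicate number as a block (replicate block), the median was -0.20 with 0 adjusted calls, and at an unadjusted p under 0.05 there were 3 members higher in N1 and 0 higher in WT. The replicate 1 minus replicate 2 differences of WT and N1 correlated at 0.028 over all probesets, so the samples share only a number.

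Of 54 named members, the sign turned for 14 after quantile normalisation, 7 after median centring, 21 with centring on the hybridisation controls and 1 to 5 with an array left out, and for 0 under the other alternatives. Dim probesets limit the resolution, with a median standard error of 0.46.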
